A study of Mus musculus with 7 samples.

Results

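Translation initiation and elongation factors were followed in mouse tissue labelled cortical plate at embryonic day 14.5 (E14.5) and at 10.5 months. Members were the genes whose symbols begin with Eif1 to Eif6 or with Eef1 or Eef2, leaving out the Y-linked Eif2s3y and 9 names that contain -ps. This gave 68 genes of the 53801 listed. Eukaryotic initiation factors (eIFs) bring the small ribosomal subunit, the initiator tRNA and the mRNA together, and elongation factors (eEFs) then deliver each aminoacyl-tRNA and move the ribosome along. Initiation is slowed when the kinases of eIF2 phosphorylate it or when the 4E-BPs bind the cap-binding protein eIF4E. Several factors have a second gene that is used in few tissues, and Eef1a2, the form of the aminoacyl-tRNA carrier found in mature neurons and muscle, is the best known of these.

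RNA was sequenced from 4 libraries at E14.5 and 3 in adults, all of strain C57BL/6J. The E14.5 mice carried 1 floxed and 1 wild-type Nbs1 allele (Nbs1 fl/+) and a Nestin-Cre transgene, which is active in neural progenitors. Males gave replicates 1 and 4, and females gave replicates 2 and 3. The adult mice were all female and carried a CamK II-Cre transgene, which is active in forebrain excitatory neurons, with Atr fl/+ in replicates 1 and 3 and Atr +/+ in replicate 2. The E14.5 libraries were made with a kit that does not mark the strand and the adult libraries with a stranded kit. Age therefore cannot be told apart from kit, Cre driver or floxed allele, and the adult group holds no males. Whether every library is a separate animal is not stated in the labels, and the p-values cover only the spread among these libraries. Library totals ranged from 27327927 to 29996018 counts in adults, and from 32533065 to 43197226 at E14.5. The cortical markers Emx1 and Tbr1 were detected in all libraries. Emx1 stood at 83.7 to 96.9 CPM (counts scaled to a common library total by the TMM method) in embryos and 14.7 to 20.2 in adults, and Tbr1 at 304 to 336 and 160 to 168. Radial glia markers, 5 in number, summed to 1564 to 1579 CPM at E14.5 and 91.0 to 97.1 in adults, 5 neuronal markers to 1152 to 1436 and 7512 to 8001, and 4 oligodendrocyte markers to 29.4 to 32.1 and 5479 to 5730. Among the neuronal markers, Tubb3, a tubulin of young neurons, went against the sum, with 896 to 1119 CPM at E14.5 and 223 to 259 in adults. These cell type markers moved with age beside every result below, and their part in the results was not tested. Fewer cells of a type and less RNA per cell cannot be told apart in whole tissue.

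The coding sequences of 3 pairs of paralogs are shown first, because the partners of each pair moved in opposite directions with age and because their letters bear on whether reads can be assigned to one gene. Each line gives 90 bases of coding sequence from GENCODE M21, 5′ to 3′, with capitals at bases that differ between the partners. Counted from the A of the start codon, the stretches cover bases 1 to 90, except that they cover bases 43 to 132 of Eif4a2 and 37 to 126 of Eif4a1.
Eef1a2: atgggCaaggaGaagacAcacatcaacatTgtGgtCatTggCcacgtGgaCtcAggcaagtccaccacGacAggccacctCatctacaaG
Eef1a1: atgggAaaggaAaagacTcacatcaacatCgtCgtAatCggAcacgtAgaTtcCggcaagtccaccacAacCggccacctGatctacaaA
Eif4a2: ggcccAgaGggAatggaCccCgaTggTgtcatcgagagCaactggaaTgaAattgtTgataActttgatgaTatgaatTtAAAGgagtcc
Eif4a1: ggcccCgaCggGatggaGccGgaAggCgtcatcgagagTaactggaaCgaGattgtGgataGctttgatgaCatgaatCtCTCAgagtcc
Eif5a2: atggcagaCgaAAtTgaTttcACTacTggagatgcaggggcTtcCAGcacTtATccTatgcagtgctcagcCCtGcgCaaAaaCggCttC
Eif5a: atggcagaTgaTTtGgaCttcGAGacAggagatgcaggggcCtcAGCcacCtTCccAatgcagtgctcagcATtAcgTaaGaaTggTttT
The Eef1a stretch holds 15 differing bases, the Eif4a stretch 18 and the Eif5a stretch 25. Over the whole aligned coding sequence, identity was 80.1% for Eef1a2 and Eef1a1, 78.0% for Eif4a2 and Eif4a1 and 72.7% for Eif5a2 and Eif5a. None of the 50-base windows of one partner occurred in the other for these 3 pairs. Eif3j1 and Eif3j2 were 100% identical over their alignment and shared 98.9% of the 50-base windows of Eif3j2, so the split of reads between them is uncertain.

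The carriers of aminoacyl-tRNA went in opposite directions with age. Eef1a1 (ENSMUSG00000037742, GRCm38 chr9:78478449-78489151, minus strand), the general form, had 5836, 5860, 5806 and 5884 CPM in E14.5 replicates 1 to 4 and 1415, 1465 and 1402 CPM in adult replicates 1 to 3. Every adult library was below every E14.5 library. The log2 fold change (log2FC, adult over E14.5 in every case) was -2.03 with an SE of 0.048, which makes the E14.5 level 4.10-fold higher (adjusted p = 1.9e-11 by the quasi-likelihood test of edgeR, with Benjamini-Hochberg adjustment over all genes tested). Eef1a2 (ENSMUSG00000016349, chr2:181147653-181157014, minus strand) had 34.0, 25.5, 37.5 and 26.6 CPM at E14.5 and 939, 884 and 864 CPM in adults. The ages did not overlap, and the adult level was 29.0-fold higher (log2FC 4.86, SE 0.13, edgeR adjusted p = 4.4e-11). Measured per length, as the deposited RPKM, Eef1a2 made up 0.629 ± 0.121% of the Eef1a sum in the 4 embryonic libraries and 42.9 ± 1.24% in the 3 adult libraries (mean ± SD, as for all such values). Eef1a1 nevertheless had the higher RPKM of the pair in adults, 486 ± 8.86 against 365 ± 15.4. The summed CPM of both genes was 5877 ± 27.9 at E14.5 and 2323 ± 49.7 in adults, 2.53 times as high at E14.5. Muscle is the other known site of Eef1a2. Summed levels of 4 muscle markers were 3.76 to 5.89 CPM at E14.5 and 11.7 to 13.9 in adults. Most of each sum was Acta1, at 3.54 to 5.62 and 10.0 to 12.5 CPM, and Myh2 rose to 1.34 to 1.56. Tnnt3 went the other way, from 0.136 to 0.267 CPM to 0.0433 to 0.125. Ckm was at 0 in every library but adult replicate 3, which had 0.0418 CPM. The part of these markers in the rise of Eef1a2 was not tested.

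**Figure D1:**
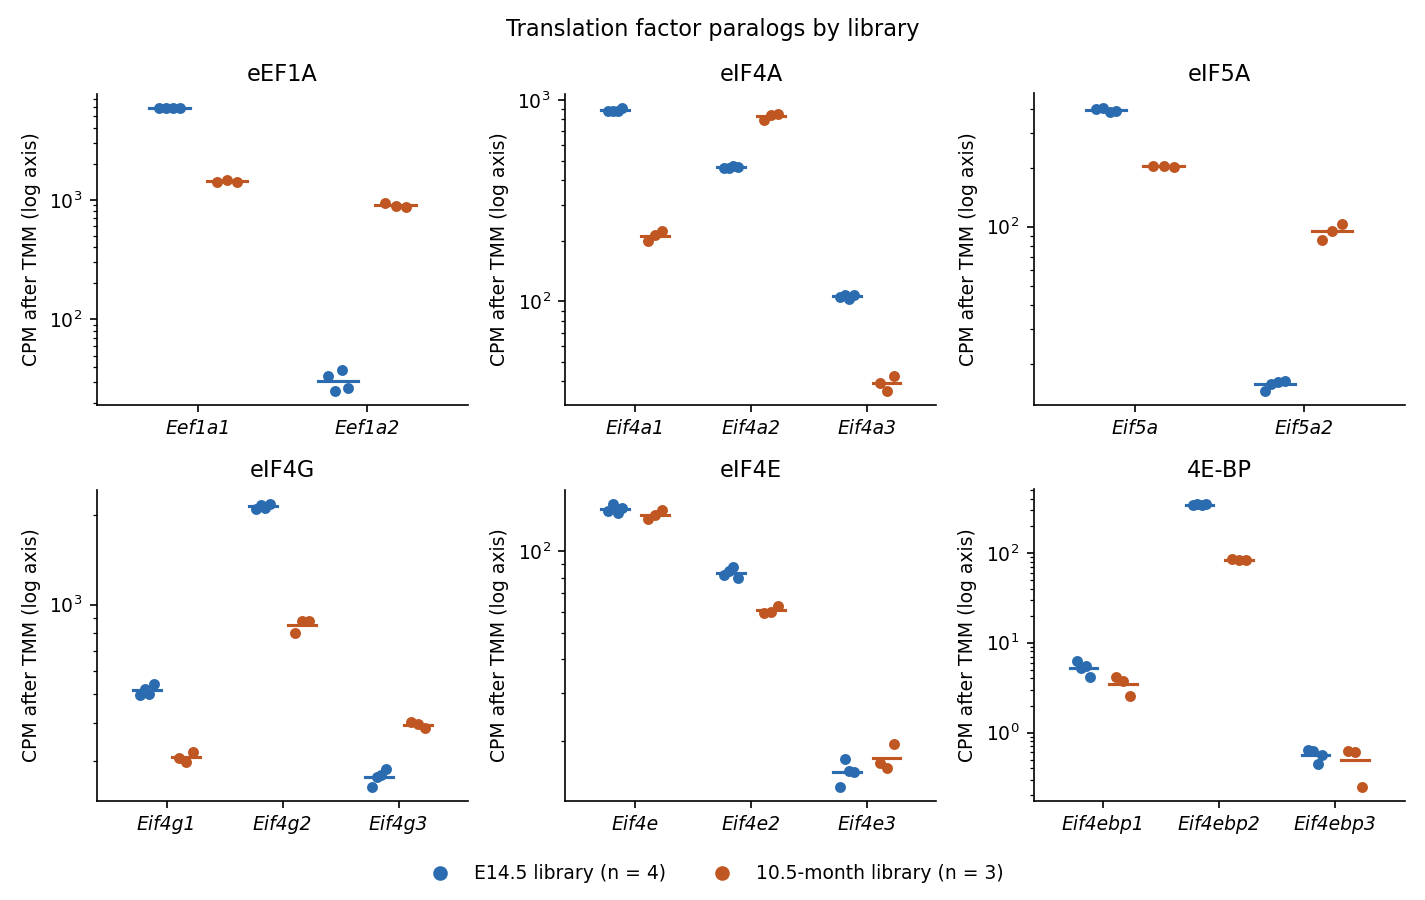
Level of each paralog in CPM after TMM scaling on a log axis, with 1 point per library and a bar at the mean of each age. Eef1a2, Eif4a2, Eif5a2 and Eif4g3 were higher in each of the 3 adult libraries than in any E14.5 library, while their partners Eef1a1, Eif4a1, Eif5a and Eif4g1 were lower. CPM is not divided by length, so points are to be compared between ages and not between genes.

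The same exchange was seen in the helicase of the cap-binding complex. Eif4a1 (chr11:69666936-69672423, minus strand), the main eIF4A helicase that unwinds the 5′ end of mRNAs, had 884, 885, 882 and 915 CPM at E14.5 and 199, 213 and 224 in adults. Its adult libraries were all below its E14.5 libraries (log2FC -2.07, SE 0.057, edgeR adjusted p = 5.5e-11). Eif4a2 (chr16:23107444-23114136, plus strand), a helicase of the same family, had 461, 461, 469 and 464 CPM at E14.5 and 796, 841 and 854 in adults. The groups did not overlap (log2FC 0.84, SE 0.047, edgeR adjusted p = 1.9e-08). Per length, Eif4a2 made up 29.7 ± 0.401% of the Eif4a1 and Eif4a2 sum at E14.5 and 76.1 ± 0.460% in adults, so the order of the pair turned over. Summed CPM of the pair was 1355 ± 16.0 at E14.5 and 1042 ± 42.5 in adults. Eif4a3, which works in the exon junction complex instead of in initiation, fell without overlap, from 103 to 108 CPM at E14.5 to 36.1 to 42.7 in adults (log2FC -1.42, SE 0.060, edgeR adjusted p = 1.6e-09).

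In the eIF5A pair, the minor form rose and the major form fell. Eif5a (chr11:69916714-69921958, minus strand), a hypusine-bearing factor that helps ribosomes past stalls, had 400, 405, 386 and 391 CPM at E14.5 and 204, 205 and 201 in adults. The ages did not overlap (log2FC -0.96, SE 0.045, edgeR adjusted p = 4.1e-09). Eif5a2 (chr3:28781276-28798846, plus strand), its paralog of restricted expression, had 14.6, 15.7, 16.1 and 16.4 CPM at E14.5 and 85.1, 95.2 and 104 in adults. Every adult library was above every E14.5 library, by 6.04-fold on average (log2FC 2.59, SE 0.072, edgeR adjusted p = 6.0e-11). Per length, Eif5a2 rose from 1.84 ± 0.117% to 18.03 ± 1.54% of the pair, so Eif5a stayed the larger at both ages. Eef1a2 and Eif5a2 were the only members that rose beyond 2-fold, at edgeR glmTreat adjusted p-values of 1.3e-10 and 9.3e-10.

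The scaffold eIF4G, which ties the cap-binding protein to the helicase and the ribosome, showed a smaller exchange. Eif4g1 had 497, 523, 501 and 543 CPM at E14.5 and 307, 298 and 321 in adults, and Eif4g3 had 246, 265, 268 and 280 CPM at E14.5 and 404, 397 and 386 in adults. Neither gene overlapped between ages. The log2 fold changes were -0.74 (SE 0.054, edgeR adjusted p = 1.7e-07) for Eif4g1 and 0.58 (SE 0.054, edgeR adjusted p = 1.4e-06) for Eif4g3. Eif4g3 made up 25.1 ± 0.612% of the pair per length at E14.5 and 45.6 ± 1.37% in adults. Eif4g2, a scaffold that lacks the binding site for eIF4E, had 2090 to 2177 CPM at E14.5 and 801 to 883 in adults, with no overlap (log2FC -1.32, SE 0.055, edgeR adjusted p = 1.4e-09).

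**Figure D2:**
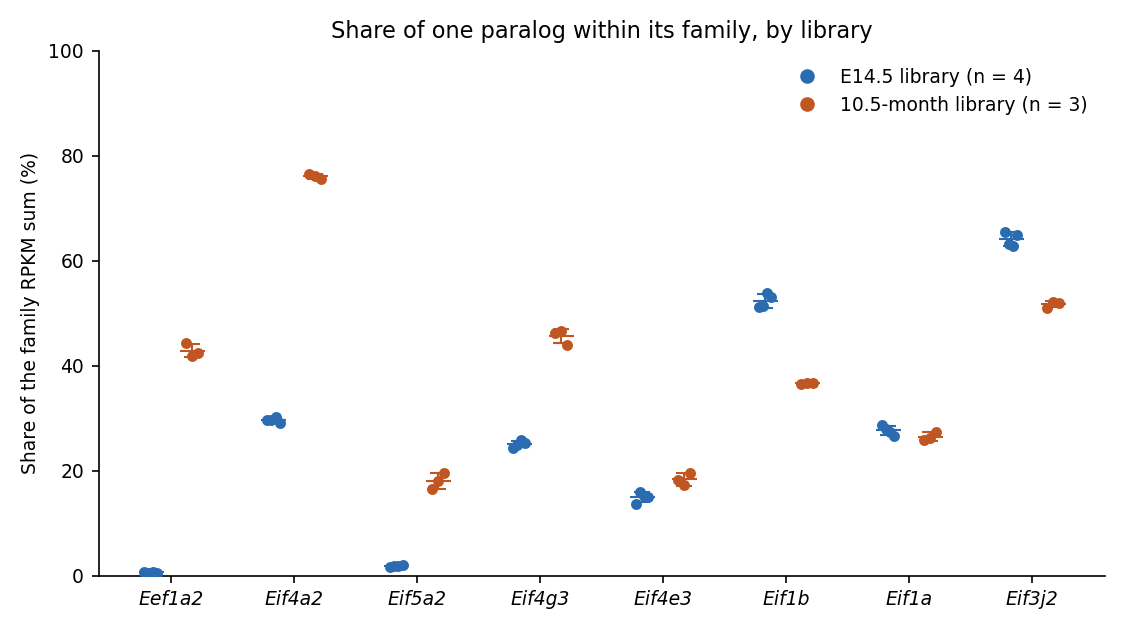
Share of one paralog in the summed deposited RPKM of its family, in percent, with 1 point per library and bars for the mean and SD (E14.5 n = 4, adult n = 3). Eef1a2 went from 0.629 to 42.9% and Eif4a2 from 29.7 to 76.1%, whereas Eif1a stood at 27.7 and 26.5%.

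Within a library, the scaling cancels in a ratio but for the small value added, which is about as large as the level itself for Eif4ebp3. Ratios were compared for 11 pairs as log2 ratios of CPM (0.5 added to each value), whose means were subtracted between ages. With 4 against 3 libraries the smallest two-sided exact permutation p is 0.0571, so no pair could pass 0.05. Of the pairs, 10 did not overlap between ages and reached that value, at an adjusted p of 0.0629 over the 11 pairs. For Eif4ebp3 to Eif4ebp1 this hung on the added value. Without it the ages overlap, with 0.557 to 4.15 CPM in E14.5 replicate 4 and 0.251 to 2.55 in adult replicate 3. The share over other pairs of genes was not computed, and 85.3% of single genes tested did not overlap between ages. The ratio of Eef1a2 to Eef1a1 was 118 times as high in adults (difference 6.89 on the log2 scale), that of Eif5a2 to Eif5a 11.4 times (3.51), that of Eif4a2 to Eif4a1 7.51 times (2.91) and that of Eif4g3 to Eif4g1 2.50 times (1.32). Smaller differences were 0.24 for Eif4e3 to Eif4e, 0.43 for Eif4ebp3 to Eif4ebp1, -0.38 for Eif4e2 to Eif4e, -0.73 for Eif3j2 to Eif3j1, -0.92 for Eif1b to Eif1 and -1.49 for Eif4ebp2 to Eif4ebp1. Eif1a to Eif1ax, the autosomal and X-linked genes for eIF1A, was the pair that overlapped, with a difference of -0.09 (exact two-sided permutation p = 0.114).

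Over all members, lower levels in adults prevailed. Of the 68 members, 65 had enough counts to be tested. Eif4e1b, a germ-line form of the cap-binding protein, had 0 counts in all 7 libraries, which allows at most 0.0694 to 0.110 CPM per library at a floor of 3 counts. Eef1akmt3, a methyltransferase of eEF1A, had 0.164 to 0.217 CPM, and Eif2c5, a non-coding RNA whose symbol follows the old naming of Argonaute genes, had 1 count in each of 2 E14.5 libraries. Among the 65, 50 were lower in adults (76.9%), where the background over all 20800 genes tested was 44.7%, and 11 were higher (16.9%), where it was 41.7%. Calls of either direction were made for 86.4% of all genes, so a call alone says little here. The median log2 fold change was -0.69 for the members and -0.08 for all genes. Beyond 2-fold, where 47.2% of all genes were called, 17 members were lower (26.2%, background 22.7%) and 2 were higher (3.08%, background 24.6%). The ages did not overlap for 61 members (93.8%, background 85.3%). Member counts summed to 2.28 ± 0.00819% of all counts at E14.5 and 0.917 ± 0.00741% in adults, of which Eef1a1 alone took 0.661 ± 0.00758% and 0.121 ± 0.00221%. Over the same libraries, transcripts of the mitochondrial genome took 2.26 ± 0.0624% and 8.13 ± 0.386% of counts. The split depended on scaling: with total counts as the only scaling, the median of all genes moved to -0.49 and that of members to -1.10, 5 members were called higher and 55 lower, and 33 were lower beyond 2-fold.

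**Figure D3:**
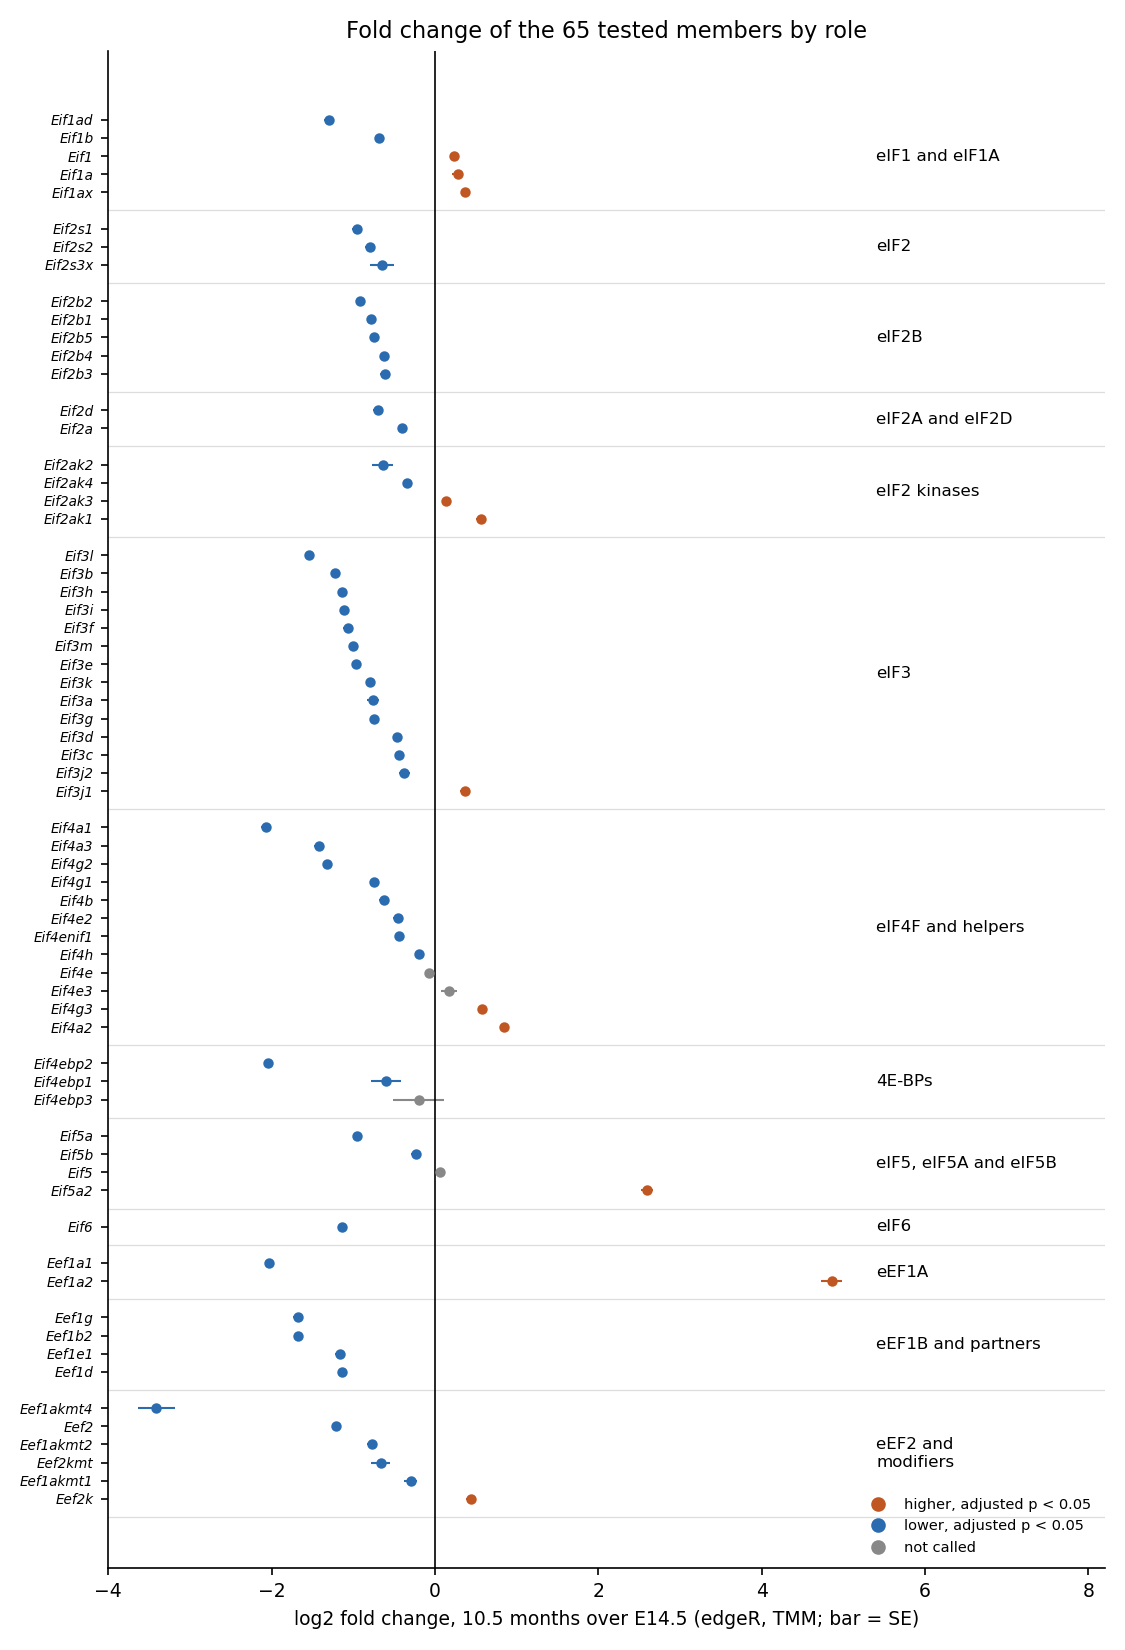
Fitted log2 fold change of the 65 tested members, adult over E14.5, grouped by role, with bars for the SE. Most points lie left of 0, with a median of -0.69, and Eef1a2 and Eif5a2 lie farthest to the right.

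Per length, the order of the members at E14.5 was led by Eef1a1 at 2652 ± 30.4 RPKM and Eef2, the translocase, at 808 ± 24.8. They were followed at a distance by Eef1g at 247 ± 4.40, Eif4g2 at 237 ± 3.08 and Eif4a1 at 233 ± 3.68, of which the last 2 lay within 2 SD of each other. In adults, Eef1a1 still led, and Eef1a2 came ahead of Eef2 (262 ± 12.3 RPKM), Eif4a2 (132 ± 5.10) and Eif1 (112 ± 1.53). Eef1a1 held 39.2% of the summed RPKM of the members at E14.5 and 18.8% in adults.

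The factors that first bind the small subunit were split. Eif1, which guards start codon selection, had 243, 240, 233 and 220 CPM at E14.5 and 274, 275 and 279 in adults, with no overlap (log2FC 0.24, SE 0.048, edgeR adjusted p = 0.00077). Eif1b, its paralog, had 133 to 146 CPM at E14.5 and 84.8 to 86.6 in adults (log2FC -0.69, SE 0.047, edgeR adjusted p = 1.1e-07), and 12.7% of its exonic length overlaps exons of the opposite strand. Per length, Eif1b made up 52.3 ± 1.34% of the pair at E14.5 and 36.7 ± 0.0539% in adults. Eif1ax and Eif1a rose by 0.36 (SE 0.049) and 0.28 (SE 0.063) on the log2 scale, at edgeR adjusted p-values of 3.0e-05 and 0.0017. These rises of Eif1, Eif1ax and Eif1a were tied to the scaling, since their log2 fold changes were -0.18, -0.05 and -0.14 with total counts only. Eif1ad, which carries an eIF1A-like domain, fell from 58.6 to 63.3 CPM at E14.5 to 22.7 to 26.4 in adults (log2FC -1.30, SE 0.062, edgeR adjusted p = 4.7e-09), with 15.3% of its exonic length under exons of the opposite strand.

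All 3 subunits of eIF2, which carries the initiator tRNA, and all 5 subunits of its exchange factor eIF2B were lower in adults, where 44.7% of all genes were, and none overlapped between ages, as for 85.3% of all genes. Eif2s1, the subunit that the stress kinases phosphorylate, had 84.0, 86.4, 80.5 and 83.1 CPM at E14.5 and 38.9, 44.2 and 46.3 in adults. Its log2 fold change was -0.95 (SE 0.063, edgeR adjusted p = 7.1e-08). The eIF2B subunits lay close together, from -0.91 for Eif2b2 (SE 0.058, edgeR adjusted p = 5.5e-08) to -0.61 for Eif2b3. Eif2d, which can deliver tRNA without eIF2, fell by 0.70 (SE 0.056, edgeR adjusted p = 3.7e-07), and Eif2a, another factor of that kind, by 0.40. Of the 4 kinases that phosphorylate eIF2, 2 were higher and 2 lower, and 1 of the higher calls (Eif2ak3) was not stable. Eif2ak1, the haem-regulated kinase, had 63.7, 58.7, 59.9 and 67.2 CPM at E14.5 and 89.1, 98.4 and 89.99 in adults (log2FC 0.57, SE 0.060, edgeR adjusted p = 4.4e-06), and 11.6% of its exonic length overlaps the opposite strand. Eif2ak2, the kinase activated by double-stranded RNA, had 4.77 to 6.15 CPM at E14.5 and 3.22 to 3.51 in adults (log2FC -0.64, SE 0.127, edgeR adjusted p = 0.00066). Eif2ak4, the kinase of amino acid shortage, fell by 0.34. Eif2ak3, the kinase of the endoplasmic reticulum, stood at 33.4 to 36.6 and 38.2 to 39.1 CPM (log2FC 0.14, SE 0.054, edgeR adjusted p = 0.030), and its direction turned with total counts only (-0.27). It did not pass with upper-quartile scaling (0.015, edgeR adjusted p = 0.79), with females only (edgeR adjusted p = 0.082), with a term for sex in the model (edgeR adjusted p = 0.092) or without any 1 adult library or E14.5 replicate 1 or 2 (edgeR adjusted p from 0.056 to 0.086).

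The X-linked Eif2s3x encodes the third eIF2 subunit and has a Y-linked copy in males, so it was read by sex. Its E14.5 levels were 188 and 199 CPM in the males and 293 and 279 in the females, and the adult females had 151, 150 and 158. All E14.5 libraries were above the adult libraries, and the embryonic females were above the embryonic males. With age, the log2 fold change was -0.65 (SE 0.144, edgeR adjusted p = 0.0015) over all libraries and -0.91 with females only (edgeR adjusted p = 6.2e-08). Within E14.5, the log2 difference, female over male, was 0.56 (SE 0.069), with an edgeR p of 0.00013 and an adjusted p of 0.12. No member passed the test of sex by edgeR, 1 member (Eif2s3x) had an unadjusted p under 0.05, and the background was 0.0497% of 20134 genes, 0.0248% in each direction. DESeq2 did call Eif2s3x, and so did edgeR without E14.5 replicate 4, which leaves a single male that is assumed to vary like the females. Adding the Y-linked Eif2s3y, which had 72.5 and 73.0 CPM in the males and 0 to 3 counts in the females, gave sums of 261, 293, 279 and 272 CPM in E14.5 replicates 1 to 4. The sums of males and females lay closer together than the Eif2s3x levels did.

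**Figure D4:**
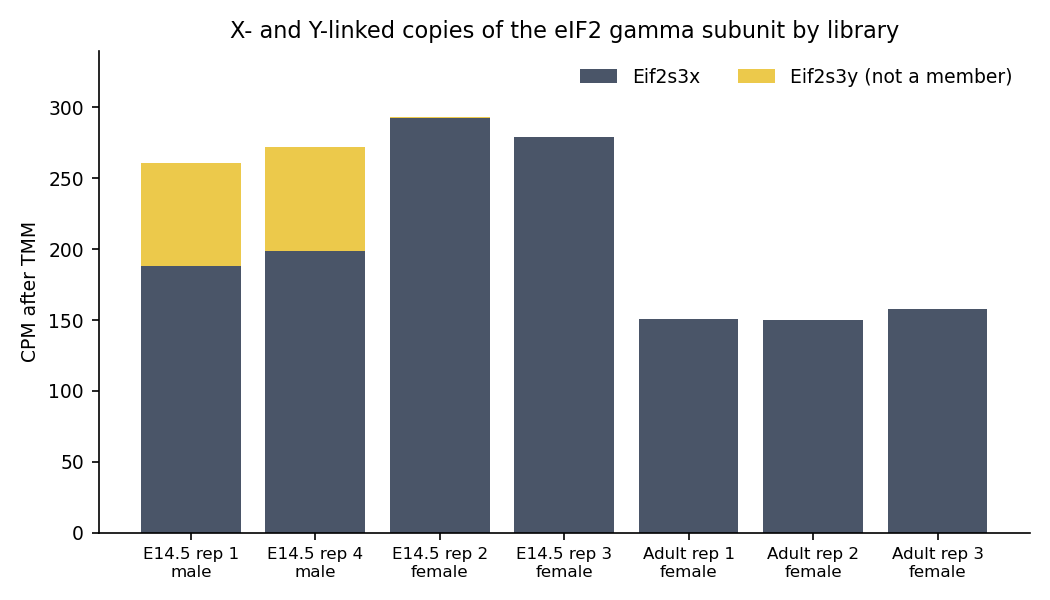
CPM after TMM scaling of Eif2s3x (dark) with Eif2s3y stacked on it (yellow), 1 bar per library. The embryonic male bars reach 261 and 272 CPM and the embryonic female bars 293 and 279, while the adult females stand at 150 to 158.

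The eIF3 complex, which holds the small subunit and the mRNA, was lower in adults for 13 of its 14 listed genes (92.9%, background 44.7%). Beyond 2-fold it was 4 of 14 (28.6%), near the background of 22.7%. Eif3l, a peripheral subunit that pairs with Eif3k, had 194, 196, 190 and 202 CPM at E14.5 and 68.9, 66.1 and 66.7 in adults, with no overlap (log2FC -1.54, SE 0.045, edgeR adjusted p = 8.7e-11). Eif3b, Eif3h and Eif3i also passed the 2-fold test, at log2 fold changes of -1.23, -1.14 and -1.11. Apart from Eif3j2, the smallest falls were those of Eif3c and Eif3d, by 0.44 and 0.46, and 43.3% of the exonic length of Eif3d overlaps exons of the opposite strand. The near-identical Eif3j1 and Eif3j2, genes of a loosely bound subunit, were called in opposite directions (log2 fold changes 0.37 and -0.37), but their summed CPM was 74.4 ± 3.71 at E14.5 and 79.7 ± 2.98 in adults and the split of reads between them is uncertain. The rise of Eif3j1 was -0.05 with total counts only.

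Among the cap-binding proteins, the call of eIF4E itself hung on the scaling. Eif4e had 140, 150, 139 and 144 CPM at E14.5 and 132, 136 and 141 in adults, overlapping between ages (log2FC -0.07, SE 0.047, edgeR adjusted p = 0.17). It was called lower with upper-quartile scaling (-0.20, edgeR adjusted p = 0.0017) and with total counts only (-0.49, edgeR adjusted p = 1.9e-06). Eif4e2, a cap-binding protein that does not bind eIF4G and acts as a repressor, fell from 79.6 to 87.4 CPM to 59.3 to 62.8 (log2FC -0.46, SE 0.050, edgeR adjusted p = 5.4e-06). Eif4e3 stood at 13.6 to 17.3 and 16.0 to 19.5 CPM, with overlap (log2FC 0.17, SE 0.099, edgeR adjusted p = 0.13). The 4E-BPs block eIF4E until mTORC1 phosphorylates them. Eif4ebp2, the most abundant 4E-BP per length at both ages, had 338, 346, 345 and 354 CPM at E14.5 and 84.8, 82.8 and 83.2 in adults. Every adult library was lower, by 4.13-fold on average (log2FC -2.05, SE 0.045, edgeR adjusted p = 1.2e-11). Eif4ebp1 had 4.15 to 6.20 CPM at E14.5 and 2.55 to 4.13 in adults (log2FC -0.60, SE 0.186, edgeR adjusted p = 0.011), and its fall did not pass without adult replicate 3 (-0.42, edgeR adjusted p = 0.053). Eif4ebp3 was at 0.251 to 0.644 CPM in all libraries and was not called by edgeR, and 67.3% of its exonic length is shared with another gene on its strand. Eif4b and Eif4h, which assist the helicase, fell by 0.63 and 0.20, and Eif4enif1, which carries eIF4E into the nucleus, by 0.44.

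Eif5, the GTPase activator of eIF2, had 295 to 320 CPM at E14.5 and 318 to 326 in adults and was not called (log2FC 0.07, SE 0.048, edgeR adjusted p = 0.21), its sign turned with total counts only (-0.35), and it was called higher with RLE scaling (0.12, edgeR adjusted p = 0.039). Eif5b, which joins the subunits, fell by 0.23, with 16.8% of its exonic length under the opposite strand. Eif6, which keeps the large subunit apart until it is mature, fell from 63.2 to 66.2 CPM to 28.2 to 29.5, with no overlap (log2FC -1.14, SE 0.048, edgeR adjusted p = 1.5e-09).

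The 4 genes listed with the exchange factors that recharge eEF1A were all lower in adults beyond 2-fold, where 22.7% of all genes were. Eef1g had 564, 575, 574 and 557 CPM at E14.5 and 187, 169 and 176 in adults, with no overlap (log2FC -1.68, SE 0.053, edgeR adjusted p = 1.5e-10). Eef1b2 and Eef1d, the catalytic subunits, fell by 1.68 and 1.13, and Eef1e1, which despite its symbol is a part of the aminoacyl-tRNA synthetase complex, by 1.16. Eef2, which moves the ribosome by a codon at a time, had 2310, 2295, 2468 and 2433 CPM at E14.5 and 1083, 998 and 1000 in adults, again with no overlap (log2FC -1.21, SE 0.056, edgeR adjusted p = 3.5e-09). Eef2k, the kinase that inactivates eEF2, went the other way, from 40.4, 40.4, 41.7 and 39.3 CPM to 58.4, 52.8 and 53.1 (log2FC 0.44, SE 0.053, edgeR adjusted p = 1.3e-05), but its change was 0.02 with total counts only. Eef1akmt4, a lysine methyltransferase of eEF1A, had 4.15, 4.74, 4.12 and 4.17 CPM at E14.5 and 0.393, 0.217 and 0.585 in adults, the largest fall of any tested member (log2FC -3.41, SE 0.228, edgeR adjusted p = 8.4e-08). Its adult levels rest on 10, 5 and 14 counts, and its exonic length is shared to 30.7% with another gene on its strand. Eef1akmt1, Eef1akmt2 and Eef2kmt, other methyltransferases of the elongation factors, fell by 0.30, 0.77 and 0.66.

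Loci annotated as pseudogenes took many counts beside several members, and how reads with several matches were treated is not given in the sources used here. Of the 68 members, 33 were matched by 108 pseudogenes at 85% identity or more over at least 200 bases. Counts at such loci came to 30.3% of those of Eef1a1 at E14.5 and 31.7% in adults, over 16 loci. The shares were 44.8% and 40.4% for Eef1g, 24.9% and 23.9% for Eif4a1 and 22.7% and 23.1% for Eif2s3x. Some of the pseudogene loci moved with their parents and others did not. Gm13456, 98.6% identical to Eef1a1, had a log2 fold change of -2.01, and Eif4a-ps4, 99.9% identical to Eif4a1, one of -2.12. For Eif1 the shares were 21.4% and 14.5% and for Eif2s2 16.1% and 18.5%. Levels of these members are therefore uncertain, and the part of these loci in the age differences was not tested.

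Promoter letters were read from RefSeq windows on GRCm38.p6, 250 bases before to 50 after the listed start, which were found for 52 members. The E-box CACGTG, the same on both strands, was present in 13 of the 52 windows (25.0%), against 10.9% of 12685 tested genes with a window and 8.09% of all 27025. CCGGAAGT, the ETS-type motif, searched on both strands, was in 9 (17.3%, against 7.78% and 4.31%), and the NRF1-type motif in 8 (15.4%, against 9.89% and 5.19%). TATAAA was in 4 (7.69%, against 9.37% and 15.7%). These are matches of letters and not shown to be sites. The 150 bases before the start of Eef1a1 and Eef1a2, which moved apart, and of Eef2 and Eif4g1, which both hold the E-box, are printed 5′ to 3′ on the strand of the gene, with CACGTG and TATAAA in capitals. They lie at chr9:78481725-78481874 (minus strand), chr2:181157016-181157165 (minus strand), chr10:81176481-81176630 (plus strand) and chr16:20672577-20672726 (plus strand).
Eef1a1: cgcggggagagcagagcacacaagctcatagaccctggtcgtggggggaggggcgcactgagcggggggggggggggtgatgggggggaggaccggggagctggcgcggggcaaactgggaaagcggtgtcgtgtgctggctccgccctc
Eef1a2: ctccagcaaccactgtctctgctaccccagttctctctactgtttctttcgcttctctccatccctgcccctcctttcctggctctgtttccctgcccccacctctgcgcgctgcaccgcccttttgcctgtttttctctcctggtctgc
Eef2: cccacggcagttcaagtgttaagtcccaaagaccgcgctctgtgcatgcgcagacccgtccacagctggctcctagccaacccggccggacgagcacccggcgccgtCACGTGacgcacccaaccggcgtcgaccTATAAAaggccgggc
Eif4g1: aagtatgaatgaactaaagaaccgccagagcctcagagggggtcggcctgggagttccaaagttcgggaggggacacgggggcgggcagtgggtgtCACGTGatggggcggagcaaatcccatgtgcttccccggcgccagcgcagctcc
Transcripts of many ribosomal proteins and elongation factors begin with a C and a run of pyrimidines, the 5′ TOP, through which mTORC1 controls their translation. A C followed by at least 4 C or T bases, beginning within 5 bases of the RefSeq start, was found for 14 of the 52 members (26.9%). The share was near the background of 23.7% of tested genes and 21.2% of all genes. RefSeq starts may differ from the true starts and were not checked here, so the search cannot tell which members have a 5′ TOP. The 20 bases around the listed start, from 5 before it, are given for Eef1a1 and Eif3f, with such a run in capitals. Those of Eef1a2, which has none there, are added. These are letters at listed starts and are not shown to be the 5′ ends of mRNAs.
Eef1a1: CCCTCTTCCCgagggtgggg
Eif3f: gCTCTCTCTCTTTCTCggca
Eef1a2: tctgcgttctcgctcactgg
They lie at chr9:78481710-78481729 (minus strand), chr7:108934410-108934429 (plus strand) and chr2:181157001-181157020 (minus strand).

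The genes that work beside the members were counted by list in the same edgeR fit. Cytosolic ribosomal proteins were lower in 82 of 83 tested genes, 63 of them beyond 2-fold, with a median log2 fold change of -1.54 against -0.69 for the translation factors and -0.08 for all genes. Shares of each list are to be read against the 44.7% of all genes that were lower and the 41.7% that were higher. Rpl18 fell most (317 ± 6.55 to 49.2 ± 5.09 CPM, log2FC -2.69, SE 0.070, edgeR adjusted p = 3.7e-11), and the 1 rise, of Rpl23a (1.09), is in a gene with 59.7% of its exonic length under the opposite strand. Of 22 genes of cytosolic aminoacyl-tRNA synthetases and their scaffold, 14 (63.6%) were lower and 5 higher (median -0.57), or 20 and 1 with total counts only, from Vars at -1.79 to Nars at 1.19, the synthetases for valine and asparagine. Of 13 partners of the cap and poly(A) tail, 8 (61.5%) were lower and 3 higher (median -0.61), or 11 and 2 with total counts only. Pabpc1, the main poly(A)-binding protein, fell from 454 ± 8.47 to 138 ± 4.97 CPM (log2FC -1.72, SE 0.049, edgeR adjusted p = 7.4e-11), and Cyfip2, a partner of the fragile X protein and of the actin-nucleating WAVE complex, rose from 172 to 201 CPM to 1269 to 1402 (2.82, SE 0.072, edgeR adjusted p = 3.0e-11).

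**Figure D5:**
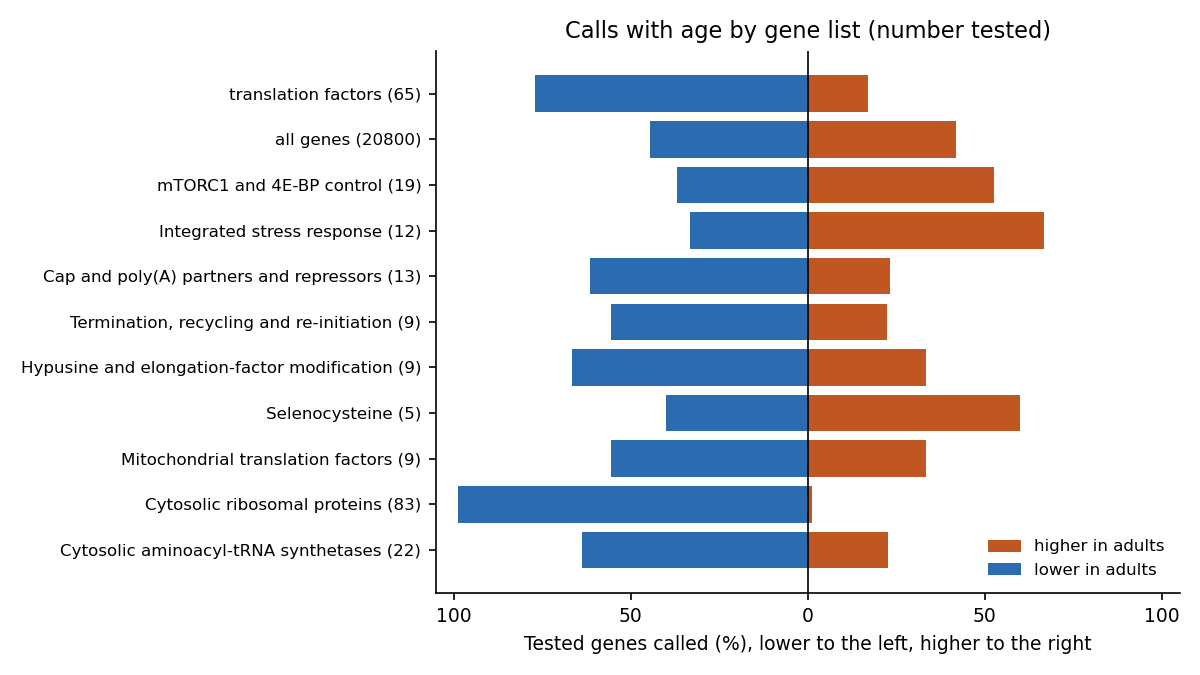
Percent of the tested genes of each list that were called lower (left) or higher (right) in adults by edgeR, with the number tested in parentheses. The translation factors were lower in 76.9% of genes and higher in 16.9%, against 44.7% and 41.7% of all genes.

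Genes that control the members were counted in the same way. Of 12 tested genes of the integrated stress response, which starts from the eIF2 kinases, 8 (66.7%) were higher and 4 lower (median 0.73), or 6 and 4 with total counts only. Impact, an inhibitor of the kinase encoded by Eif2ak4, had 35.5, 30.7, 35.6 and 39.3 CPM at E14.5 and 280, 305 and 293 in adults, with no overlap (log2FC 3.05, SE 0.075, edgeR adjusted p = 2.5e-11). Gcn1l1, which activates the same kinase, had 164 to 214 CPM at E14.5 and 83.8 to 91.8 in adults (log2FC -1.18, SE 0.089, edgeR adjusted p = 2.5e-07). Asns, the asparagine synthetase induced by that pathway, rose from 28.8 ± 3.71 to 119 ± 6.15 CPM (2.05, SE 0.090, edgeR adjusted p = 2.1e-09). Of 19 genes of mTORC1 and 4E-BP control, 10 (52.6%) were higher and 7 (36.8%) lower (median 0.13), shares near the background, which turned to 7 and 9 with upper-quartile scaling and 4 and 13 with total counts only. The largest changes were in inhibitors of the pathway: Deptor rose from 0.811 ± 0.230 to 30.4 ± 1.47 CPM (5.23, SE 0.150, edgeR adjusted p = 7.3e-11), and Ddit4 fell from 131 ± 11.1 to 33.7 ± 4.00 (-1.96, SE 0.091, edgeR adjusted p = 3.6e-09).

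The remaining lists were mixed. Of 9 genes of termination, recycling and re-initiation, 5 (55.6%, near the background) were lower and 2 higher, or 7 and 1 with total counts only, from Mcts2 at -0.89 to Gspt2, the second eRF3 gene, at 1.996. Of 9 genes that add hypusine to eIF5A or diphthamide to eEF2, 6 (66.7%) were lower and 3 higher, and none of the 3 rises passed with total counts only. Dph2, of the diphthamide pathway, fell by 1.04, and Dohh, the second enzyme of hypusine synthesis, had a log2 fold change of 0.61 with 47.5% of its exonic length shared on its strand. Mitochondrial translation factors were lower in 5 (55.6%) and higher in 3 of 9, or in 6 and 1 with total counts only, from Tsfm at -0.78 to Gfm1 at 0.57. Selenocysteine factors were lower in 2 and higher in 3 of 5 (median 0.30), or in 2 and 1 with total counts only (median -0.12), from Eefsec at -0.52 to Pstk at 1.54, the latter with 58.8% of its exonic length under the opposite strand.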

How the data were processed

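Per the labels' protocols, embryonic RNA went through TruSeq RNA v2 and adult RNA through TruSeq stranded mRNA. Tools named in the submitters' processing notes are bcl2fastq 1.8.4, TopHat2 2.1.0 and featureCounts 1.5.0, on GRCm38. Not given in the sources used here are the strand setting, the annotation release and what was done with reads of several matches. For 53801 genes the authors deposited whole counts together with RPM and RPKM values. The RPM values as deposited are the counts over each library's total, and in the RPKM every gene has 1 length throughout. GENCODE M21 gave positions and overlaps for 53706 gene identifiers.

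The test of counts was that of edgeR 4.0.16 under R 4.3.3 (quasi-likelihood F test, TMM factors, filterByExpr with a minimum count of 10 and total of 15, Benjamini-Hochberg adjustment over all genes, threshold 0.05). CPM values are counts scaled to the TMM-adjusted total. Changes beyond 2-fold were tested with glmTreat, a rule chosen after seeing the data. Each SE is the absolute log2 fold change over the root of its F. Paralog ratios used an exact permutation test in SciPy 1.17.1. Floors are 3 counts per library, over its total before TMM scaling, and cover counting error only. Pseudogenes were matched with BLAST 2.17.0 over at least 50% of their length, and coding sequences aligned with Biopython 1.88. The edgeR test was also run on simulated counts in which few genes changed, which cannot check the scaling between ages.

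The members, gene lists and pairs were chosen with earlier results of these data known. Genes were named by rule: pair members, Eif2s3x, and the largest called rise and fall of each role group and list with a mean of at least 1 CPM. Other members, Asns and the pseudogenes were named after their values were seen. Protein sequences were not used here. Replicates differed by 4.15 to 13.3 chi-square per degree of freedom, so none was counted as a duplicate. Alternatives were other scalings and filters, DESeq2 1.42.0, limma-trend 3.58.1 on log2 of RPKM, single libraries left out, sex and replicate terms, and genes without opposite-strand overlap.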

Additional observations from a re-analysis of the deposited data

Results flagged for a closer look

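In 2 members, 1 library stood apart from the other 3 at E14.5, judged by its gap to the nearest library divided by the range of the group, which passed Dixon's critical value for a group of 4. Eif4a1 had 915 CPM in replicate 4 against 882 to 885 in the others, a ratio of 0.905. Eef1akmt4 had 4.74 CPM in replicate 2 against 4.12 to 4.17, a ratio of 0.920. Chance gives about 1 such group in 20, and 65 members were examined. Both genes kept their fall with age when each library was left out in turn.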

How the results depend on the processing

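Scaling moved the members most. The deposited RPKM are already divided by library totals, so limma-trend on RPKM shares the scaling of total counts only. The 11 higher members were 5 with total counts only and 5 with limma-trend on RPKM plus 0.5 or 0.1, and the 17 members lower beyond 2-fold were 33 with total counts only. Log2 fold changes turned negative, with total counts only and then with limma-trend on RPKM plus 0.5 and plus 0.1, for Eif1 (-0.18, -0.17, -0.17), Eif1a (-0.14, -0.14, -0.14), Eif1ax (-0.049, -0.049, -0.050), Eif2ak3 (-0.27, -0.25, -0.27), Eif3j1 (-0.049, -0.045, -0.047), Eif4e3 (-0.24, -0.23, -0.24) and Eif5 (-0.35, -0.34, -0.35). Eif5 was also -0.060 with upper-quartile scaling and -0.012 without a low-count filter, but was called higher with RLE scaling (0.12) and among genes without opposite-strand exon overlap (0.15), where Eif4e3 was also called higher (0.25). Eif4e was called lower with upper-quartile scaling (-0.20), total counts only (-0.49), no low-count filter (-0.15) and limma-trend (-0.48 with either pseudocount), and turned to 0.0078 among genes without opposite-strand exon overlap. Eif4ebp3 was at -0.41 without adult replicate 1, 0.12 without adult replicate 3 and -0.61 with total counts only. It was called lower with limma-trend on RPKM plus 0.5 (-0.38, limma-trend adjusted p = 0.0499). Eif2ak3 also missed the threshold without E14.5 replicate 1 or 2 or any 1 adult library, with females only, sex as a covariate, upper-quartile scaling and no low-count filter. Leaving out single libraries gave 10 to 11 higher and 49 to 50 lower members. Members higher in females numbered 0 by edgeR and 1 without a low-count filter, with DESeq2 and without E14.5 replicate 4, and leaving out single libraries gave 0 to 1. Beyond that shared scaling, the cause of these shifts was not tested. With the replicate number as a block, a run that left out E14.5 replicate 4, 11 members were higher and 50 lower, and no call of a member changed. Correlations of same-numbered libraries were -0.0013, -0.015 and 0.028, and those of differently numbered libraries ranged from -0.055 to 0.033. No pairing by number was seen, though so few libraries cannot exclude one. No pair ratio changed sign under any alternative run. Levels under 1 CPM (Eif4ebp3, Eef1akmt3, and Eef1akmt4 in adults) are limited by depth.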
